A study of Mus musculus with 12 samples.

Results

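The proteasome genes comprised every protein-coding gene of the count files whose symbol starts with Psma to Psmg followed by a number, and 48 of 37583 gene identifiers met this rule. They were 8 alpha and 10 beta subunits of the core particle, 6 ATPases and 11 non-ATPase subunits of the regulatory cap, 3 chaperones of cap assembly, 5 activators, 1 inhibitor and 4 chaperones of core assembly. Their RNA was measured by sequencing in mouse granulocyte-monocyte progenitors (GMPs) that divide without limit under an inducible oncogene, in 6 wildtype clones and 6 clones lacking Tafazzin (Taz), the enzyme that remodels cardiolipin in the inner mitochondrial membrane. The progenitors came from fetal liver of C57BL/6 embryos at embryonic day 15.5, and each clone was grown from 1 cell. Clones of both genotypes carried a retroviral ER-Hoxb8 fusion, which blocks maturation while estradiol is present, and were kept in stem cell factor with 0.5 µM estradiol. Wildtype clones are called 1A to 1C and 2D to 2F, and knockout clones 3G to 3I and 4J to 4L. What the number in a clone's name stands for is not given in the labels. Should it mark a shared embryo or parental line, the 12 clones would be fewer independent units than the tests assume, and their p-values would come out too low.

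The proteasome is the protease that degrades most ubiquitin-tagged proteins of the cytosol and nucleus. Its core is a barrel of alpha and beta rings with the active sites on the inner face of the beta rings, and its cap recognizes ubiquitin, unfolds the substrate and opens the gate of the barrel. Blood cells can exchange the constitutive catalytic subunits Psmb5, Psmb6 and Psmb7 for the interferon-inducible Psmb8, Psmb9 and Psmb10, and can place other activators on the barrel ends. The transcription factor NFE2L1 raises the transcription of most subunit genes when proteasome activity is short.

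Counts in genes ran from 21966954 to 27431544 per wildtype clone and from 18970252 to 23658158 per knockout clone, and values below are CPM (counts scaled to library size with TMM factors). Taz itself ranged from 37.0 to 43.9 CPM in wildtype clones (median 38.4) and from 2.21 to 4.07 CPM in knockout clones (median 3.39), a log2 fold change of −3.54 (SE 0.13, edgeR adjusted p = 5.68e-08). Summed over 10 GMP markers, levels were 13158 to 22597 CPM in wildtype and 12123 to 20217 CPM in knockout. Mpo, the most abundant of them, was at 5325 CPM or more in every clone. Mature neutrophil markers summed to 1411 CPM in 2D and to 5.20 to 99.5 CPM in the other clones. Lymphoid markers summed to 4.70 to 62.4 CPM in wildtype and 1.44 to 2.58 CPM in knockout, with Cd3e and Cd8a at 0 counts in all clones, and hepatocyte markers reached 141 CPM in 3G. The part of these other cell types in the results below was not tested, and in bulk RNA fewer cells of a type and less RNA per cell cannot be told apart.

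Proteasome RNA was slightly lower in Taz knockout clones, and the members that passed the test came from the cap, the alpha rings and the activators. Of 48 members, 46 had enough counts to be tested. Among these, 7 fell (15.2%) and 0 rose at an edgeR adjusted p under 0.05. Over all 11819 genes tested 3.94% fell and 3.99% rose, 7.94% in all. The 7 were the cap subunits Psmc1, Psmd1, Psmd2 and Psmd8, the alpha subunits Psma1 and Psma7, and the activator Psme4. By class, 4 of 20 tested cap genes, 2 of 7 alpha subunits, 0 of 9 beta subunits and 1 of 5 activators were called. Their log2 fold changes lay between −0.22 and −0.13, so the differences were small. The count depended on the clones and on the unit of analysis: it was 3 without 3G or 3I and 4 without 1A, 1B or 4K. It was 0 when counts were summed by the number in the clone names. With those sums Psmc1, Psmd1 and Psmd8 had adjusted p of 0.0875, 0.0955 and 0.0963. Over all genes the count of lower calls dropped too, from 466 to 272 without 3G and 276 without 3I. It was 323, 305 and 321 without 1A, 1B and 4K, and 116 with the summed counts. Before adjustment 18 members (39.1%) had a p under 0.05, against 23.7% of all genes, and 0 of the 18 were higher in knockout. DESeq2 and limma-voom likewise called 0 members higher. A negative log2 fold change was found for 38 members (82.6%), against 51.7% of all genes, and the median was −0.09 for members and −0.01 for all genes. Without 2D, 31 members were negative and their median was −0.05. Many members varied together from clone to clone, as described below, so these counts are not of independent genes.

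**Figure D1:**
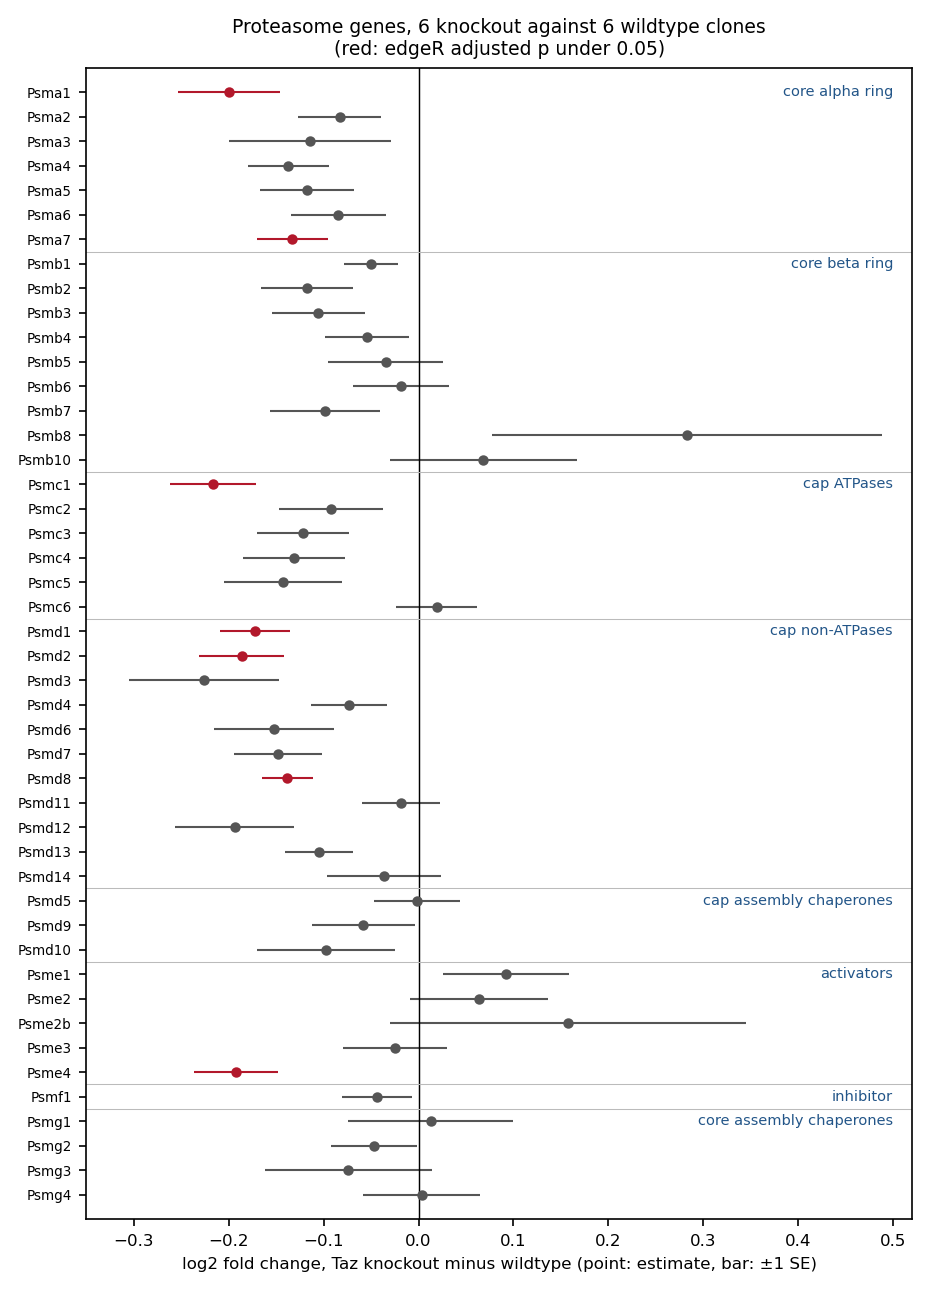
Log2 fold change of 46 tested proteasome genes, knockout minus wildtype (x axis; points are estimates, bars ±1 SE), grouped by role; red marks an edgeR adjusted p under 0.05. The 7 red genes all lie left of 0, and the 11 cap non-ATPases and 7 alpha subunits lie left of 0 throughout, whereas Psmb8 has the largest positive estimate and a wide error.

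Short stretches of 3 promoters of members that fell, and of 2 that carry another motif, are shown to let the sequence before the start site be compared among members. Promoter windows from 250 bases before to 50 bases after the start, from RefSeq on GRCm38.p6, matched 41 genes by symbol (44 windows). These are called member windows below, although they include Psmb9, which is absent from the members counted above. The ETS site CCGGAAG, searched on both strands, was in 15 member windows (34.1%) and in 8.86% of all 32851 windows. The windows of Psmc1, Psmd2 and Psme4 held it close to the start, with its first base at −28, −26 and −53. The windows of the other 4 members that fell, Psma1, Psma7, Psmd1 and Psmd8, did not hold these letters, and 11 of the 14 genes that did were not called, Psmc6, Psmd11, Psme3 and Psmg1 among them. Capitals mark the ETS site, which reads CTTCCGG where it lies on the opposite strand, and sequences run 5′ to 3′ along the gene.
Psmc1, chr12:100110144-100110201, plus strand: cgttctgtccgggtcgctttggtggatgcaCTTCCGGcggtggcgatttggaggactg
Psmd2, chr16:20651596-20651651, plus strand: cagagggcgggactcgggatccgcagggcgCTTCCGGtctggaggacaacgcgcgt
Psme4, chr11:30771692-30771758, plus strand: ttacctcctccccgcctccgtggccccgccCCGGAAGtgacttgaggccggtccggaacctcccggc
The antioxidant response element core TGACNNNGC, the kind of site that NFE2L1 and NFE2L2 bind with small MAF partners, was in 6 member windows (13.6%) and 12.4% of all windows. The 6 genes were Psmb5, Psmb6, Psmc6, Psmd9, Psmd12 and Psme4, and the stretches of the catalytic subunit genes Psmb5 and Psmb6 are shown, where capitals mark it.
Psmb5, chr14:54618004-54618072, minus strand: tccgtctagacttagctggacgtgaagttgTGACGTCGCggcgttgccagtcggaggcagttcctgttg
Psmb6, chr11:70525318-70525356, plus strand: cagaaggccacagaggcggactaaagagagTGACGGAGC
The CCAAT box was in 14 member windows (31.8%) and 37.4% of all windows, among them those of Psma1, Psma7 and Psmc1 and of Psmb9. The core of the interferon-stimulated response element was in 5 member windows (11.4%) and 3.44% of all windows, namely those of Psmb3, Psmd4, Psmd9, Psme1 and Psmg4. These letter matches describe the windows only, and motifs may overlap one another.

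Among the alpha subunits, which form the outer rings and the gate of the core, Psma1 and Psma7 fell and the other 5 tested subunits had negative estimates that did not pass the test. Psma1 ranged from 257.6 to 309.0 CPM in wildtype clones (median 278.0) and from 221.7 to 259.9 CPM in knockout clones (median 249.5). The groups overlapped only in that wildtype 1C lay below knockout 4L. Its log2 fold change was −0.20 (SE 0.05, edgeR adjusted p = 0.0429), and the call was kept only when 1C or 2E was the clone left out (adjusted p without 1 of the other 10 clones 0.0514 to 0.0898). Psma7 ranged from 282.0 to 306.4 CPM in wildtype (median 292.2) and from 253.2 to 289.0 CPM in knockout (median 261.2), with a log2 fold change of −0.13 (SE 0.04, edgeR adjusted p = 0.0486). Knockout 4J was the highest knockout clone for Psma7 and lay inside the wildtype range, and leaving out any clone but 4J ended the call (adjusted p 0.0536 to 0.108). The remaining alpha subunits Psma2 to Psma6 had log2 fold changes between −0.14 (Psma4, adjusted p = 0.0714) and −0.08 (Psma2, adjusted p = 0.277).

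None of the 9 tested beta subunits passed the test, including the constitutive catalytic subunits. Psmb5, which carries the chymotrypsin-like site, ranged from 48.8 to 61.9 CPM in wildtype (median 52.1) and from 48.3 to 56.4 CPM in knockout (median 52.8), so the ranges nearly coincided (edgeR adjusted p = 0.782). Psmb6, with the caspase-like site, ranged from 125.4 to 155.3 CPM in wildtype (median 130.9) and from 128.7 to 141.0 CPM in knockout (median 132.0; adjusted p = 0.863). Psmb7, with the trypsin-like site, ranged from 182.1 to 228.3 CPM in wildtype (median 192.5) and from 176.8 to 198.7 CPM in knockout (median 185.4; adjusted p = 0.336). Clone 2D was the highest wildtype clone for each of these 3 genes, and the small negative estimates of Psmb5 and Psmb6 turned positive without it. The other 4 constitutive beta subunits had log2 fold changes from −0.12 (Psmb2, adjusted p = 0.162) to −0.05 (Psmb1, adjusted p = 0.306).

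The inducible catalytic subunits were higher in knockout by estimate but varied widely between clones. Psmb8, which replaces Psmb5, ranged from 62.0 to 160.7 CPM in wildtype (median 109.2) and from 95.5 to 172.0 CPM in knockout (median 133.3). Its log2 fold change of 0.28 had an SE of 0.21 and did not pass (edgeR adjusted p = 0.445). The lowest wildtype clone was 1A and the highest was 2E, and the lowest and highest knockout clones were 4L and 4K. Psmb10, which replaces Psmb7, ranged from 54.9 to 83.7 CPM in wildtype (median 63.9) and from 61.4 to 78.6 CPM in knockout (median 68.3; adjusted p = 0.727). An antisense gene, Gm20496, overlaps 14.7% of the Psmb8 exons, and the counting was without strand, so reads of the pair cannot be told apart. RNA of Psmb9 was not analysed here.

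In the ring of 6 cap ATPases, which unfold substrates, Psmc1 fell and the other 5 did not pass the test. Psmc1, whose tail docks into the alpha ring and helps to open the gate, ranged from 222.5 to 256.1 CPM in wildtype (median 233.3) and from 192.6 to 219.1 CPM in knockout (median 202.6). The genotypes did not overlap, and all 6 knockout clones lay below all wildtype clones. The log2 fold change was −0.22 (SE 0.05, edgeR adjusted p = 0.0148). Values of the other ATPases ran from −0.14 for Psmc5 (adjusted p = 0.188) to 0.02 for Psmc6 (adjusted p = 0.836), which had the only positive estimate among the 31 constitutive structural subunits of core and cap.

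Of 11 non-ATPase cap subunits, Psmd1, Psmd2 and Psmd8 fell, and the other 8 had negative estimates that did not pass. Psmd1, a large scaffold of the cap base, ranged from 376.3 to 432.4 CPM in wildtype (median 404.1) and from 350.0 to 372.7 CPM in knockout (median 356.9; log2 fold change −0.17, SE 0.04, edgeR adjusted p = 0.0156). Psmd2, the other large scaffold and a docking site for ubiquitin shuttles, ranged from 379.2 to 443.1 CPM in wildtype (median 389.0) and from 332.8 to 365.6 CPM in knockout (median 357.2; log2 fold change −0.19, SE 0.04, adjusted p = 0.0271). The Psmd2 call was lost without 1A, 3G, 3I or 4K (adjusted p 0.0551 to 0.0650), and 26.4% of its 50-base stretches recur in other annotated genes. Neither gene overlapped between genotypes, and for both the highest wildtype clone was 2D and the lowest knockout clone was 3G. Psmd8, a subunit of the lid, ranged from 201.1 to 219.5 CPM in wildtype (median 209.5) and from 184.1 to 197.1 CPM in knockout (median 191.0), again without overlap. Its log2 fold change was −0.14 with an SE of 0.03 (adjusted p = 0.0110), the smallest adjusted p among the members. The lid subunit Psmd12 also had no overlap, from 165.2 to 213.5 CPM in wildtype and 143.9 to 164.3 CPM in knockout, but did not pass (log2 fold change −0.19, SE 0.06, adjusted p = 0.0829). Thus 5 members (10.9%) lay lower in knockout without overlap, and over all genes 2.84% did so, while 0 members and 2.54% of all genes lay higher (5.38% of all genes in both directions). Psmd3 had the most negative estimate of any member, −0.23, with an SE of 0.08 (adjusted p = 0.103). The ubiquitin receptor Psmd4 ranged from 162.6 to 189.0 CPM in wildtype (median 168.2) and from 160.4 to 167.0 CPM in knockout (median 165.1; adjusted p = 0.300), and the cap deubiquitinase Psmd14 did not pass (adjusted p = 0.763).

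**Figure D2:**
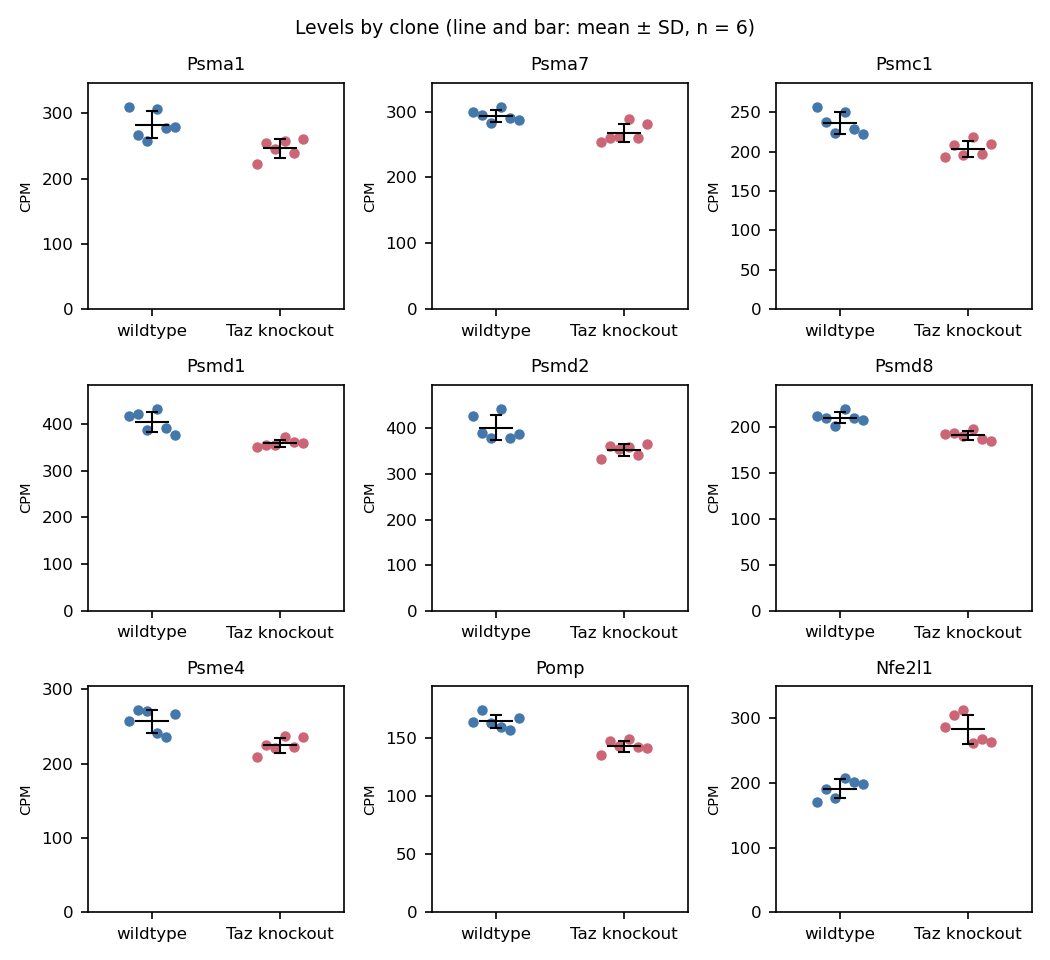
TMM-scaled CPM by clone (y axis from 0) for the 7 members that fell and for 2 non-members, Pomp and Nfe2l1; each point is 1 clone, and line and bar give the mean ± SD of 6 clones. Psmc1, Psmd1, Psmd2 and Psmd8 show no overlap between genotypes, Psma1, Psma7 and Psme4 overlap, and Nfe2l1 is higher in all knockout clones.

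The activators, which bind the ends of the core in place of a cap, did not move together. Psme4, a large nuclear activator linked to acetylated histones, fell. It ranged from 235.8 to 272.0 CPM in wildtype (median 262.2) and from 209.8 to 236.8 CPM in knockout (median 223.7), and only wildtype 2E reached below the highest knockout clone. The log2 fold change was −0.19 (SE 0.04, edgeR adjusted p = 0.0231), and the call was lost without 1B, 1C, 2F, 3G or 3I (adjusted p 0.0511 to 0.0546). Psme1, an interferon-inducible activator subunit, ranged from 128.4 to 165.5 CPM in wildtype (median 145.9) and from 144.5 to 175.5 CPM in knockout (median 155.7; adjusted p = 0.443). Its partner Psme2 ranged from 35.9 to 48.0 CPM in wildtype (median 41.6) and from 39.7 to 47.9 CPM in knockout (median 44.0; adjusted p = 0.647). For the nuclear activator Psme3 the log2 difference was −0.02 (adjusted p = 0.835). Psme2b, with 16 to 31 counts per clone, shares 69.3% of its 50-base stretches with other genes, mainly Psme2, and its value is uncertain. The inhibitor Psmf1, which binds the core, was even across clones, from 58.6 to 63.6 CPM in wildtype (median 61.8) and from 55.3 to 62.9 CPM in knockout (median 59.6; adjusted p = 0.519).

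Assembly chaperones showed no call in either direction. Psmg1, which with Psmg2 builds the alpha ring, ranged from 59.5 to 90.5 CPM in wildtype (median 69.7) and from 66.9 to 74.9 CPM in knockout (median 71.9; edgeR adjusted p = 0.951). The wildtype spread came from 2D at the top, and the sign of the Psmg1 estimate changed when single clones were left out. Psmg2, Psmg3 and Psmg4 had log2 fold changes of −0.05, −0.07 and 0.00, and the cap chaperones Psmd5, Psmd9 and Psmd10 had −0.00, −0.06 and −0.10.

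Summed over the 31 constitutive structural subunits, levels were 6495 ± 396 CPM in wildtype (SD, n = 6; range 6130 to 7150) and 5982 ± 207 CPM in knockout (range 5701 to 6206). The sums overlapped, since wildtype 1C lay below the knockout clones 4J and 4L. Of these 31 subunits 6 fell, 0 rose and 30 had a negative estimate, with a median log2 fold change of −0.12. Most of these subunits varied together from clone to clone, as described below, so the 30 negative estimates are not independent of one another. Over all genes 3.94% fell, 3.99% rose and 51.7% had a negative estimate. The highest sum, 7150 CPM, was that of 2D. Leaving 2D out lowered the number of negative estimates among all tested members from 38 to 31.

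The same genes were compared between clones grouped by the number in their names, with 3 clones a number. The 4 comparisons of a knockout with a wildtype number share clones and are given side by side. Members had a median log2 fold change of −0.07 for 3 against 1, −0.06 for 4 against 1, −0.13 for 3 against 2 and −0.08 for 4 against 2. Psme4 alone passed the edgeR test, in 3 against 1 (log2 fold change −0.29, SE 0.06, adjusted p = 0.0363), where 1.57% of all genes were called, and 0 members passed in the others, where 0.508%, 0.719% and 0.262% of all genes were called. Before adjustment 11, 5, 15 and 8 members had a p under 0.05 in the order above, or 23.9%, 10.9%, 32.6% and 17.4% of members, against 16.5%, 12.6%, 14.3% and 12.4% of all genes. For 4 against 1 the members' share was thus below that of all genes. Psmd8 was more even, at −0.11, −0.13, −0.14 and −0.16 in the same order. Within a genotype, numbers 2 against 1 and 4 against 3 gave 0 edgeR calls among members and among all genes, and members had a median of 0.03 in each. Before adjustment 1 and 0 members, and 416 and 244 genes, had a p under 0.05 there.

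Partner proteins and regulators without a Psm symbol came from fixed lists. Of 11 tested partners, 2 fell and 0 rose, against 3.94% and 3.99% of all genes. Partner estimates were negative for 6 and positive for 5, with a median log2 fold change of −0.03. Pomp, the maturation factor that is the first substrate of each new core, ranged from 157.7 to 174.3 CPM in wildtype (median 163.9) and from 135.8 to 149.2 CPM in knockout (median 142.9). The genotypes did not overlap, and the log2 fold change was −0.20 (SE 0.03, edgeR adjusted p = 0.00381), of the same size as for Psma1 and Psme4. Txnl1, a thioredoxin bound to the cap, ranged from 209.2 to 239.4 CPM in wildtype (median 217.0) and from 193.2 to 203.0 CPM in knockout (median 198.0; adjusted p = 0.0197). The cap ubiquitin receptor Adrm1 ranged from 14.6 to 18.8 CPM in wildtype (median 16.9) and from 15.2 to 17.2 CPM in knockout (median 15.9; adjusted p = 0.630).

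Of 11 tested genes listed for control of proteasome genes by NFE2L1 and NFE2L2, 2 rose and 0 fell, against 3.99% and 3.94% of all genes. Their estimates were positive for 6 and negative for 5, with a median log2 fold change of 0.02. Nfe2l1 ranged from 171.2 to 207.8 CPM in wildtype (median 194.5) and from 261.6 to 312.1 CPM in knockout (median 276.4), with no overlap. Its log2 fold change was 0.56 (SE 0.06, edgeR adjusted p = 0.000460). The small MAF partner Mafg ranged from 79.3 to 97.5 CPM in wildtype (median 84.6) and from 103.1 to 110.8 CPM in knockout (median 104.9; log2 fold change 0.30, adjusted p = 0.00396). Nfe2l2 ranged from 115.1 to 138.3 CPM in wildtype (median 117.9) and from 115.9 to 137.4 CPM in knockout (median 126.2), and did not pass (adjusted p = 0.728). NFE2L1 is controlled largely by cleavage and degradation of the protein, which RNA counts do not measure. Of the 6 members with the antioxidant element core in their windows, Psme4 fell (−0.19, SE 0.04) and the other 5 did not pass. The values of these 5 were −0.19 (SE 0.06) for Psmd12, −0.06 (SE 0.05) for Psmd9, −0.03 (SE 0.06) for Psmb5, −0.02 (SE 0.05) for Psmb6 and 0.02 (SE 0.04) for Psmc6.

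Among 7 tested ubiquitin shuttle receptors Sqstm1, an autophagy receptor that also binds ubiquitin, rose from a wildtype median of 233.5 CPM (190.4 to 263.9) to 284.1 CPM (257.3 to 329.7; log2 fold change 0.31, edgeR adjusted p = 0.0357). Of 7 tested heat shock genes Hspa8, the constitutive cytosolic chaperone, rose from a wildtype median of 556.5 CPM (500.1 to 576.6) to 611.1 CPM (596.2 to 635.6; log2 fold change 0.16, adjusted p = 0.0251). The other 6 heat shock genes had negative estimates that did not pass, and the median of that list was −0.11. Estimates of the shuttle receptors were positive for 3 and negative for 4. Over all genes 3.99% rose. Leaving out single clones ended the call of Sqstm1 for 1A, 1B, 1C, 3G, 3H, 3I or 4K, and of Hspa8 for 1C, 3I, 4J or 4K (adjusted p 0.0501 to 0.0778).

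Most structural subunits varied together from clone to clone. After each genotype's mean was subtracted, pairs of the 31 constitutive structural subunits had a median Pearson r of 0.75 over the 12 clones (465 pairs, 444 positive), and for pairs of all genes the quartiles of r were −0.31 and 0.31. Without 2D the median was 0.65 and 439 pairs were positive. Within the 6 wildtype clones alone the median r was 0.85 (435 pairs positive), and within the 6 knockout clones it was 0.71 (412 positive). Psmb1 did not follow the mean of the other structural subunits (r of −0.06), and the next lowest structural subunit was Psmd7, at 0.49. These are descriptions over 12 libraries, which all genes share. Clones 2D and 1A lay above the wildtype mean, by 0.15 and 0.07 log2 units averaged over these subunits. Of the wildtype clones, these 2 also had the highest sums of mature neutrophil markers (1411 and 99.5 CPM) and of GMP markers (22597 and 19716 CPM) and the lowest of mast cell and basophil markers (1052 and 1442 CPM), whose part in this was not tested. Mpo made the largest part of the GMP sums (13282 CPM in 2D and 11029 CPM in 1A), and 2F, at 19680 CPM, was close to 1A. The GMP markers did not move together: Elane, Prtn3 and Gfi1 were highest in these 2 wildtype clones, and Cd34, Kit and Cebpa were lowest. Clones 4J and 4L lay highest among knockout clones, by 0.06 and 0.04. Clone 4L had the highest mature neutrophil and GMP sums of the knockout clones (84.1 and 20217 CPM), and 4J had 29.2 and 19970.5 CPM. Clone 3G lay lowest among knockout clones, at −0.07, with 78.6 and 20181 CPM. The alignment with marker sums seen in wildtype thus did not hold throughout in knockout.

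Another set, Psmb8, Psmb10, Psme1 and Psme2, followed one another (median r of 0.84, all 6 pairs positive) and ran opposite to the structural subunits (median r of −0.60, 118 of 124 pairs negative). This set was formed after its values were seen. Without 2D the median between the sets was −0.53, with 111 pairs negative. It was −0.75 within wildtype clones (115 pairs negative) and −0.39 within knockout clones (96 pairs negative). The pairs reuse the same genes and clones, so they are not independent of one another. The set was lowest in 1A and 2D, at −0.30 and −0.20 log2 units from the wildtype mean, and highest in 2E at 0.34, with 4K at 0.20 above the knockout mean. Antigen-processing partners averaged 0.61 in 2E and 0.41 in 4K. They averaged −0.26 in 1A, −0.25 in 2D and 2F, −0.34 in 4J and −0.57 in 4L. The averages include Nlrc5, which had few counts in some clones. Nlrc5 was at 0.71 CPM in 2F, against 5.51 to 18.9 CPM in the other wildtype clones. Among knockout clones it was lowest in 4L, followed by 4J at 0.72 CPM. This gene thus lowered the averages of 2F, 4J and 4L, by an amount that was not tested. Clones 2E, 3I and 4K also had the lowest GMP marker sums, 13158, 13238 and 12123 CPM, and the highest mast cell and basophil sums, 3993, 4376 and 4758 CPM, and the part of this in the pattern was not tested. Of the GMP list, Mpo, Elane, Prtn3, Ctsg and Ms4a3 were lowest in these clones. Kit was highest there within each genotype (782, 801 and 863 CPM), and Cd34 was not low (2036, 2093 and 2200 CPM). The inducible set in 3I was at −0.01, unlike in 2E and 4K. The cap chaperone Psmd10, an X-linked gene, also ran against the structural mean (r of −0.71).

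**Figure D3:**
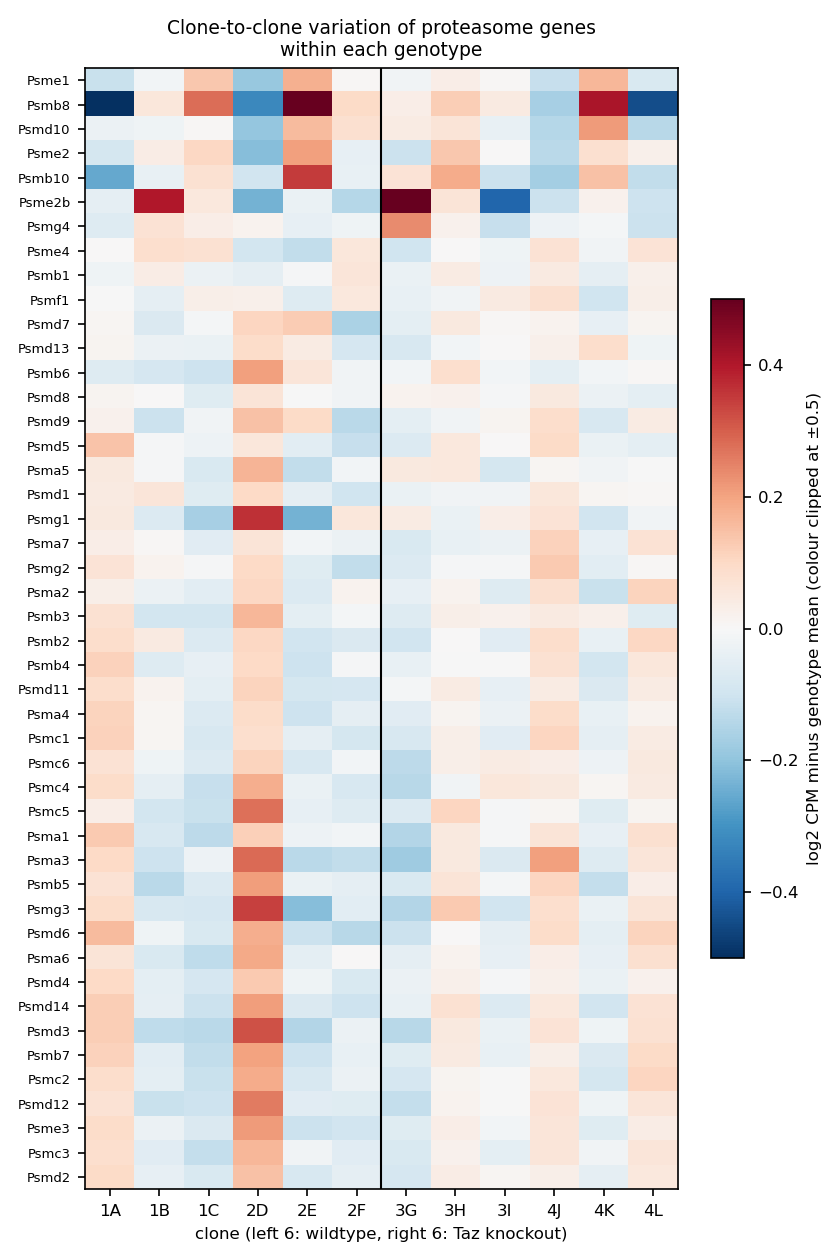
Log2 CPM of 46 proteasome genes (rows) in 12 clones (columns, wildtype left of the line) minus the mean of the clone's genotype, with genes ordered by their correlation with the mean of the structural subunits and colours clipped at ±0.5. The lower rows, which are structural subunits and the genes that follow them, are red in 1A and 2D, and Psme1, Psmb8, Psme2 and Psmb10 at the top are blue there and red in 2E and 4K.

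Wildtype clones were more spread than knockout clones for most subunits. The SD of log2 CPM was larger in wildtype for 29 of 31 structural subunits (93.5%), against 66.5% of all genes tested. Clone 2D carried much of this, as without it the count was 22 of 31 (71.0%) against 54.2% of all genes. The median SD of the structural subunits was 0.10 in wildtype, 0.07 in wildtype without 2D and 0.06 in knockout.

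Levels per length, as mean CPM per kilobase of exon in wildtype clones, differed more between subunits than between genotypes. The highest was the alpha subunit Psma6 at 253 CPM per kilobase, followed by the beta subunits Psmb2 at 153 and Psmb4 at 151, and the nuclear activator Psme3 stood at 135. The order depends on the length used: per kilobase of the principal transcript Psma7 was highest at 320.9, followed by Psma6 at 299.8, Psmb4 at 249.6 and Psma1 at 235.3. The median of the 46 tested members was 59.0 CPM per kilobase. By exon length the lowest were Psme2b at 1.01, the cap chaperone Psmd9 at 5.81, the alpha subunit Psma3 at 7.59 and the inhibitor Psmf1 at 9.51. Psma3 is a member of every core, and 22.0% of its 50-base stretches recur in other annotated genes. In 10 members, Psmb5 (57.1%), Psmb3 (55.8%) and Psma5 (55.4%) among them, 20% or more of the stretches recur. Of all deposited records 43.6% were reads aligned to more than 1 place and were not counted, so levels of these genes may be understated by an amount that was not tested.

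The ratio of Psmb8 to Psmb5 per kilobase of exon was 0.546 ± 0.194 in wildtype (SD, n = 6; 0.293 in 1A to 0.817 in 2E) and 0.675 ± 0.163 in knockout (0.474 in 4L to 0.947 in 4K). With the length of the principal transcript in place of all exons the ratio was 1.13 ± 0.402 and 1.40 ± 0.338, so the data do not fix which of these subunits has more RNA. Psmb10 over Psmb7 was 0.676 ± 0.147 in wildtype and 0.751 ± 0.0970 in knockout per kilobase of exon, and 0.298 ± 0.0647 and 0.331 ± 0.0428 by principal transcript. The ranges of the genotypes overlapped for both ratios.

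**Figure D4:**
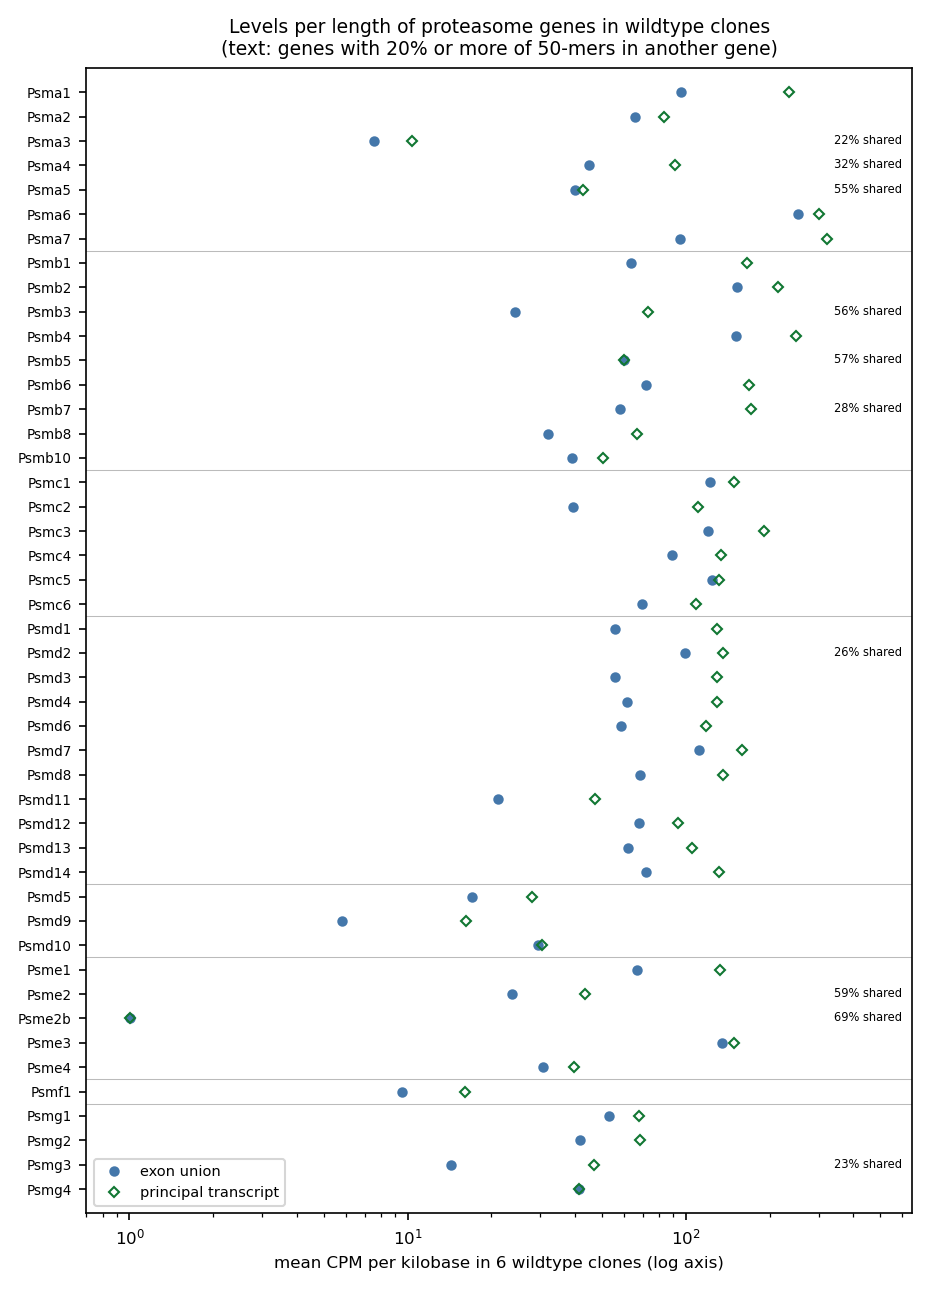
Mean CPM per kilobase in 6 wildtype clones (log x axis) for 46 tested members, with the exon union (filled) or the principal transcript (open) as length; text at right gives the share of 50-base stretches found in other genes where it is 20% or more. Psma6 stands at the top of the exon-union values and Psme2b at the bottom.

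The members that did not pass the count filter were the tissue-restricted Psmb11 and Psma8. Psmb11, the catalytic subunit of the thymic cortex, had 0 or 1 count in each clone. Psma8, an alpha subunit of the testis, had 1292 counts (54.9 CPM) in knockout clone 3I, 1 count in 2D and in 4L, and 0 in the other 9 clones, for which 0 counts allow up to 0.109 to 0.158 CPM depending on the library. None of the 50-base stretches of Psma8 recurs in another annotated gene. Of its neighbours on chromosome 18, Ss18 had 109.8 CPM in 3I and 94.4 to 102.0 CPM in the other clones, and Taf4b had 32.4 CPM in 3I and 22.5 to 34.0 CPM in the others, in CPM without TMM scaling. Impact and Kctd1 lay within the range of the other clones.

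**Figure D5:**
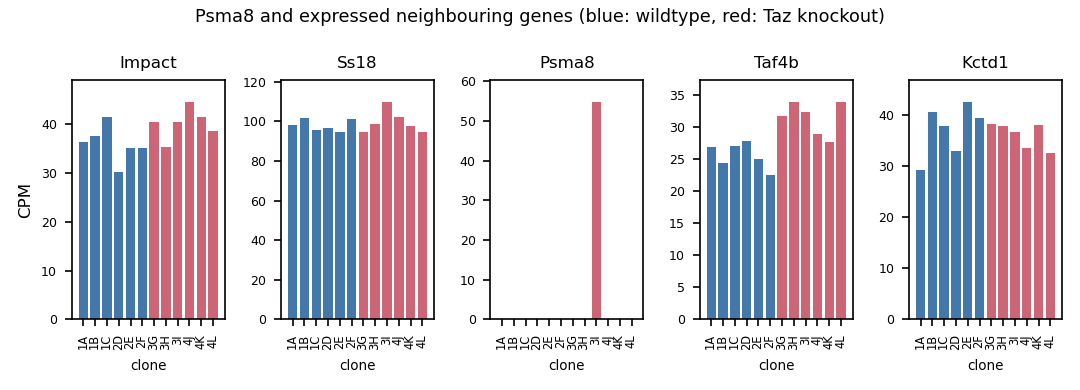
CPM without TMM scaling by clone (blue wildtype, red knockout, y axes from 0) for Psma8 and expressed genes near it on chromosome 18. Psma8 stands out in 3I alone, at 54.8 CPM, where Ss18 is slightly above the other clones and Impact, Taf4b and Kctd1 are within their range.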

How the data were processed

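RNA of 12 clones was analysed, 6 per genotype. The authors deposited raw read counts per Ensembl gene. The submitters' processing notes name STAR, HTSeq, edgeR and build mm9; versions are not given in the sources used here. Per the file names as deposited, counting was without strand. HTSeq's summary lines, which name no gene, stayed out of library sizes and tests: reads aligned to more than 1 place made 43.6% of records, reads outside genes 3.55% and ambiguous reads 1.59%.

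Symbols, lengths, exon overlaps and the order of neighbouring genes came from GENCODE M21 (GRCm38), another build than that of the counts. Printed promoter coordinates are RefSeq's on GRCm38.p6 and were not joined to the counts by position. It has 49 genes of the pattern, and 48 identifiers were in the files. The test was edgeR 4.0.16 (R 4.3.3) by quasi-likelihood, with TMM scaling, a low-count filter by genotype (filterByExpr) and p-values adjusted over 11819 genes by Benjamini-Hochberg. SE is the absolute log2 fold change over the square root of F. Clone deviations used log2 CPM with a prior count of 2. Alternatives used other scaling factors, other filters, DESeq2 1.42.0, limma 3.58.1 (voom), counts summed by clone number, and each clone left out. Lengths of principal transcripts, and co-variation without 2D and in each genotype apart, were added after seeing the data. The fit was checked on simulated counts.

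Members and lists were chosen with earlier results of these data known. Named genes were the called members, the catalytic, inducible and receptor subunits with Psmf1 and Psmg1, and Nfe2l1, Nfe2l2, Pomp, Adrm1, Taz and called genes of the lists, of which some are not reported here. RNA of Psmb9, whose annotated identifier was not matched, was not analysed here, although its promoter was counted among the member windows. A count of 0 was taken to allow 3 counts, which covers counting error only. Nothing in the labels ties clones to separate embryos, so p-values measure the spread between these clones.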

Additional observations from a re-analysis of the deposited data

Results flagged for a closer look

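Each member was checked in each genotype for a clone that stood far from the other 5. In 95 groups of 6 clones 5 such values were found, and chance gives about 1 in 20 groups. Psma8 reached 54.9 CPM in knockout clone 3I, with 0 to 0.0502 CPM in the other knockout clones, and its wildtype value of 0.0433 CPM in 2D is a single count. Psmc5, a cap ATPase, was 208.3 CPM in 2D and 159.2 to 176.0 CPM in the other wildtype clones. Psmg2, a core chaperone, was 76.5 CPM in 4J and 66.6 to 70.0 CPM in the other knockout clones. Psmg4, another core chaperone, was 27.0 CPM in 3G and 21.1 to 23.2 CPM in the other knockout clones.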

How the results depend on the processing

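The count of members that fell was 7, and other settings gave 5 to 10 with other scaling factors, filters, DESeq2 or limma-voom. It was 12 with limma-voom and clone number as a correlated block, whose estimated correlation was −0.169. A negative correlation narrows the error of a comparison between clone numbers, so this setting made no allowance for likeness among clones sharing a number. The count was 0 with counts summed by clone number, which leaves 4 samples. Leaving out 1 clone gave 3 to 7: 3 without 3G or 3I, and 4 without 1A, 1B or 4K. No member rose in any of these settings. Psmc1, Psmd1 and Psmd8 were called in all 12 of these fits, Psmd2 in 8, Psme4 in 7, Psma1 in 2 and Psma7 in 1. Over single clones left out, the log2 fold change of Psmb5 ran from −0.0637 to 0.0121 and that of Psmb6 from −0.0384 to 0.0278, both highest without 2D, and that of Psmg1 from −0.0367 without 2E to 0.0974 without 2D. Counts over all genes moved as well, from 472 higher and 466 lower to 801 and 830 with DESeq2, 1171 and 1123 with the block, 271 and 280 without a filter, and 158 and 116 with summed counts. They were 330 and 272 without 3G, and 294 and 276 without 3I. Without 1A, 1B and 4K they were 329 and 323, 303 and 305, and 387 and 321. No paired analysis was possible because the genotypes share no clone number. Depth limits only Psme2b, Psma8 and Psmb11, as all other members had at least 423 counts in every clone.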
